A study of Homo sapiens with 4 samples.

Results

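CTCF HiChIP and SMC1 FA-EGS HiChIP were compared at the promoters of protein-coding genes in HG00731, a lymphoblastoid cell line (LCL), that is, B cells immortalised with Epstein-Barr virus. Chromatin for CTCF was fixed with formaldehyde (FA) alone, and chromatin for SMC1 was fixed with FA followed by EGS, a longer cross-linker. Each target had 2 biological replicates, which the authors pooled into 1 peak list and 1 loop list per target, so no value below has a spread between replicates and no test between lists was made. Of the 61417 CTCF peaks on chromosomes 1 to 22, 1089 were selected, 1.77% (95% Wilson confidence interval from 1.67% to 1.88%). These peaks shared no base with any of the 94628 SMC1 peaks, and a coding start, the start of any transcript that GENCODE release 44 lists as protein-coding on hg38, lay within 1 kb of their edge. Both criteria were taken from the peak positions: 24.2% of all CTCF peaks overlapped no SMC1 peak and 16.3% lay at a coding start. "Without cohesin" here means without a called SMC1 peak, and since the targets differed in antibody and in fixation, weak recovery of SMC1 and low cohesin cannot be told apart. The labelled cell type was not checked against markers, since neither assay measures expression.

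CTCF is a zinc finger protein that binds a long asymmetric DNA motif, and SMC1 is a subunit of cohesin, the ring complex that extrudes chromatin loops. Extruding cohesin is held at CTCF sites, most often where a pair of motifs point towards each other, and the anchors of loops therefore usually carry both proteins. At promoters CTCF can also lie close to the start of transcription, and in the protocadherin alpha gene cluster it is known to bind both the alternative promoters and their exons. HiChIP reads come from DNA next to restriction sites, joined by ligation and enriched by an antibody, so the peaks are taken from the same reads as the loops.

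The sequences under the peaks were read from hg38. A CTCF motif of 19 bp was learned from 3000 strong distal CTCF peaks with cohesin, none of them among the 1089, and was sought within 100 bp of each summit on both strands. In each of the following sequences the learned motif is in capitals, and the strand is that of the motif. The first set lies in coding exons of 4 protocadherin alpha genes, which encode neuronal adhesion proteins, and is shown because the 4 sites sat in the same place of each gene. Their coordinates are chr5:140807622-140807680, chr5:140822207-140822265, chr5:140841756-140841814 and chr5:140869538-140869596, all on the plus strand.
PCDHA4: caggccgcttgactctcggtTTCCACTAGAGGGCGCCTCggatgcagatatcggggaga
PCDHA5: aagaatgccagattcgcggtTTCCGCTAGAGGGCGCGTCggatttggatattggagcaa
PCDHA8: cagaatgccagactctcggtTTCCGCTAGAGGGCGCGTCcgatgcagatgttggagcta
PCDHA11: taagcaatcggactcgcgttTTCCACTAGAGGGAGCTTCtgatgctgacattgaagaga
All 4 sites held the run CTAGAGGG, PCDHA5 and PCDHA8 had the same 19 letters, and the centres of the sites lay between 570 and 610 bp downstream of the start.

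The second set shows high-scoring motif matches at other promoters. The match at DNAJC22, which encodes a J domain protein, lies in a UTR at chr12:49347770-49347788 on the minus strand. DHX37 encodes a helicase of ribosome assembly and held the highest score, 20.3 bits, in an intron at chr12:124979753-124979811 on the plus strand. Its peak was weak, with a fold enrichment of 2.93 and a -log10 q-value of 3.58.
DNAJC22: GGCCGCCAGGTGGCGCTGC
DHX37: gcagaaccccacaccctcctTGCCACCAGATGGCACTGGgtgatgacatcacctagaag
The last sequence gives the plus strand for 50 bp on either side of the summit of a strong peak that held no match. It lies outside coding genes at chr9:137579469-137579569, upstream of DPH7, a gene of diphthamide synthesis. The window held no GATC, the site of the restriction enzyme, so it is in lower case throughout.
DPH7: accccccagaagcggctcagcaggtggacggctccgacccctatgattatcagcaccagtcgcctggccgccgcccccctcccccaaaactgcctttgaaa

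Contacts were taken from the pair of loop lists that the authors called with MAPS between bins of 5 kb. The lists are named by their labels, but their content ran against these. On chromosomes 1 to 22, all 79406 loops of the list labelled CTCF had an SMC1 peak at an anchor and 95.4% a CTCF peak, while all 27785 of the list labelled SMC1 had a CTCF peak at an anchor and 99.96% an SMC1 peak. The loop totals that the study lists per target, over all chromosomes, equal those of the lists with the labels exchanged, so the list labelled CTCF holds the total given for SMC1 and the reverse. The labels were kept as names, values are given for both lists, and none rests on the target.

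The selected peaks were weaker and narrower than the CTCF peaks with cohesin at promoters. Their median fold enrichment, the summit signal divided by the background nearby, was 3.44 (95% interval from 3.37 to 3.52), against 5.25 (from 5.17 to 5.34) for the 8938 CTCF peaks with cohesin at promoters and 3.27 (from 3.24 to 3.29) for the 13787 distal CTCF peaks without cohesin. The median -log10 q-value was 8.86 (from 8.18 to 9.56), against 24.1 and 5.62. These intervals come from the ranks of the peaks and cover counting error only. Among the selected peaks 33, or 3.03%, reached a -log10 q-value of 50, compared with 3069, or 34.3%, of those with cohesin. Another 251 stayed under 5. The median width was 275 bp (from 269 to 281), close to that of distal CTCF peaks without cohesin, 266 bp, while promoter peaks with cohesin were 543 bp wide. A narrow or weak peak meets an SMC1 peak less easily, so strength and width are not independent of how the peaks were selected.

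**Figure D1:**
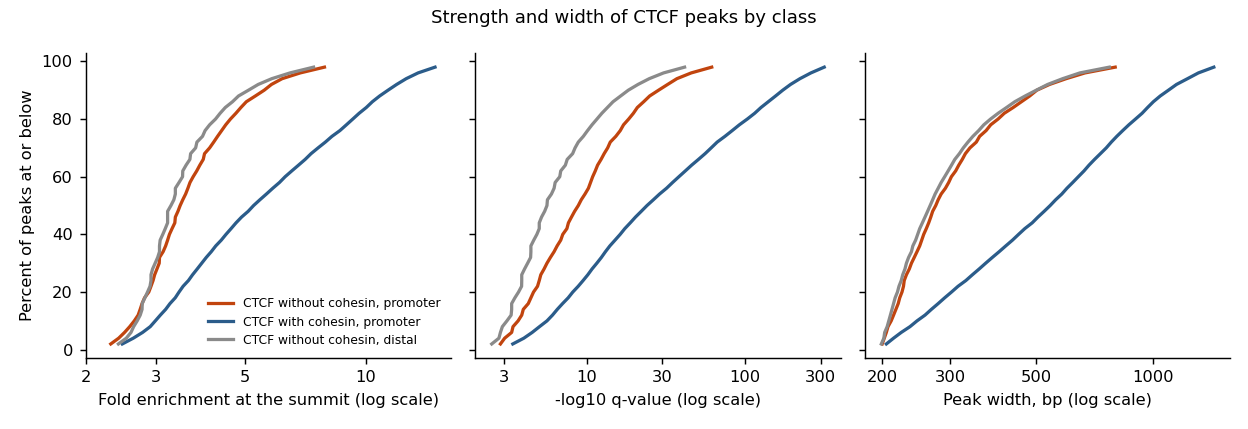
Cumulative percent of peaks (vertical axis) against fold enrichment at the summit, -log10 q-value and peak width in bp (horizontal axes, log scales), for CTCF peaks without cohesin at promoters, CTCF peaks with cohesin at promoters and distal CTCF peaks without cohesin. The curve of the peaks without cohesin at promoters runs near that of the distal peaks without cohesin, with medians of 3.44, 8.86 and 275 bp, and left of that of the promoter peaks with cohesin.

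The share of CTCF peaks without cohesin was lower at promoters than elsewhere, and it fell with strength in both places. Over all strengths it was 10.9% (95% Wilson interval from 10.3% to 11.5%) of the 10027 promoter peaks and 26.8% (from 26.4% to 27.2%) of the 51390 others. At -log10 q-values from 2 to 5 it was 27.0% at promoters and 68.4% elsewhere. Above 50 it was 1.06% (from 0.759% to 1.49%) at promoters and 1.11% (from 0.963% to 1.29%) elsewhere, which differed by less than the counting error. Across chromosomes the share at promoters ran from 6.22% on chromosome 13 (from 3.59% to 10.6%) to 14.7% on chromosome 16 (from 11.9% to 18.0%).

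The strongest peak by -log10 q-value lay 453 bp upstream of a start of INPP5E, which encodes an inositol polyphosphate phosphatase of the primary cilium. It had a -log10 q-value of 186, a fold enrichment of 14.5 and a width of 524 bp, and the nearest SMC1 peak began 834 bp away. The next was at ENSG00000267335 and CGB1, a chorionic gonadotropin subunit gene, with a -log10 q-value of 158 and its summit 77 bp downstream of the start. The 32 bp at that summit occur in 2 copies in the genome. Whether longer reads from the copies could be told apart was not tested. PABPC4, which encodes a cytoplasmic poly(A) binding protein, followed with 147 and DPH7 with 145, both at a fold enrichment between 10.2 and 10.8. CCDC144A (98.1), SRI (95.5), which encodes the calcium-binding protein sorcin, and DALRD3 (91.1) came next. The peak of DALRD3 also lay at the start of NDUFAF3, an assembly factor of respiratory complex I. MYO1F, a class I myosin of blood cells, had a -log10 q-value of 88.6 with a fold enrichment of only 4.03, over a width of 911 bp. WDR90 (86.7) and CDIPT (86.4), the phosphatidylinositol synthase, complete the 10 highest. For comparison, the upper quartile of the promoter peaks with cohesin was 78.3.

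Fold enrichment brought up other genes. PHLDA2, an imprinted gene that limits placental growth, had a fold enrichment of 13.8 and RASA4, which encodes a Ras GTPase-activating protein, one of 13.1. SRI had 12.9. The 3 widest peaks were those of CCDC144A (1352 bp), HS3ST2 (1257 bp), a heparan sulfate sulfotransferase gene, and PCDHA3 (1223 bp). Only 10 of the 1089 peaks reached a fold enrichment of 10.

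The selected peaks lay around coding starts more than on them. A start fell inside 208 of them, 19.1%, compared with 48.7% of the wider promoter peaks with cohesin. The summit was within 200 bp of the nearest start in 235 peaks (21.6%), against 38.2% with cohesin. The rule can set part of both differences, because it left out overlap with SMC1 peaks. Of all coding genes 64.2% had an SMC1 peak within 1 kb of a start. Upstream and downstream summits were about equally frequent, 540 and 549. By annotation 582 summits lay in introns of coding genes, 120 in coding exons, 110 in UTRs and 277 outside coding genes. The share in coding exons was 11.0%, compared with 8.60% of promoter peaks with cohesin. The 208 peaks with a start inside were the stronger ones, with a median -log10 q-value of 11.9 (from 10.3 to 14.0), against 8.80 for the 433 upstream and 7.94 for the 448 downstream.

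Sequence composition differed along the same line. Within 100 bp of the summit the median GC share was 53.2% (from 52.2% to 54.2%), below the 60.7% of promoter peaks with cohesin and above the 43.8% of distal peaks without cohesin. CpG observed over expected, which is high in CpG island promoters, had a median of 0.392, against 0.679 and 0.179. Among the peaks with a start inside, the GC share was 60.9% and CpG observed over expected 0.609. The nearest GATC lay at a median of 72.5 bp from the summit, against 63.5 bp with cohesin at promoters and 101.5 bp in distal peaks without cohesin.

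Many of the selected peaks had cohesin nearby. The gap to the nearest SMC1 peak had a median of 1617 bp (from 1341 to 1943), and was 6453 bp for distal CTCF peaks without cohesin. It was at most 100 bp in 17 peaks, at most 500 bp in 234 and at most 1 kb in 453 (41.6%). Of the 10 strongest peaks 8 had an SMC1 peak within 1 kb, as did 56 of the 100 strongest. Another CTCF peak lay within 1 kb of 402 peaks, and for 302 of them, 27.7% of all, the nearest one overlapped an SMC1 peak. The gap to the nearest other CTCF peak had a lower quartile of 559 bp. It was 814 bp for promoter peaks with cohesin and 3777 bp for distal peaks without it. A close CTCF peak was therefore not particular to the selected peaks among promoter peaks. At the other end, 198 peaks (18.2%) were over 10 kb from any SMC1 peak and 13 were over 100 kb away.

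**Figure D2:**
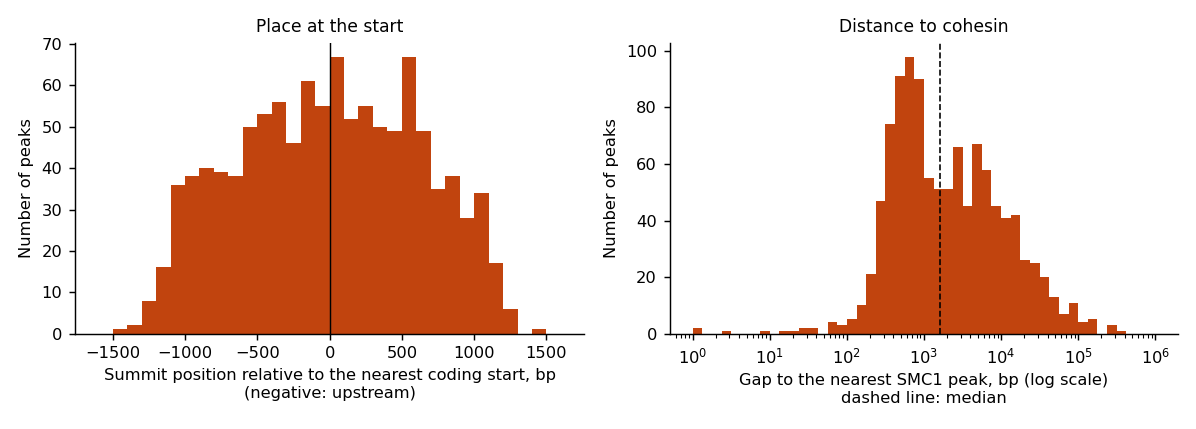
Left, number of peaks (vertical axis) by the position of the summit relative to the nearest coding start in bp, in bins of 100 bp, negative values being upstream. Right, number of peaks by the gap to the nearest SMC1 peak in bp (log scale), where the dashed line marks the median of 1617 bp and 453 peaks lie at 1 kb or less.

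The rule on SMC1 cut through a continuum. Just inside it, the peaks at SPTSSA and NEK6 were 1 bp from an SMC1 peak and the peak at SPATA13 was 3 bp away, with -log10 q-values between 3.31 and 6.58. Just outside, the peaks at GPR35 (5.62), MAP4 (2.52) and STAT6 (3.89) overlapped one by 2 or 3 bp. For the distance to a start, CCDC102A and LPIN1 were just inside at 1000 bp, with -log10 q-values of 4.90 and 19.4. TUBB3, EVI5L and ALDOC were just outside at 1002, 1003 and 1004 bp, with 2.53, 8.28 and 3.86. The lowest -log10 q-value among the selected peaks was 2.03, at RCN1.

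The selected peaks were also described by their gap to the nearest SMC1 peak. The 453 peaks within 1 kb of an SMC1 peak had a median -log10 q-value of 10.8 (from 9.86 to 11.5), above the 7.42 of the 438 peaks at 1 to 10 kb and the 7.51 of the 198 farther away. Their fold enrichment did not follow this order, with medians of 3.44, 3.35 and 3.83. A CTCF motif match was present in 11.9% of the nearest (from 9.25% to 15.2%), 19.2% of the middle group (from 15.8% to 23.1%) and 21.2% of the farthest (from 16.1% to 27.4%). Loop anchors of the list labelled CTCF held 55.4%, 34.2% and 5.05% of the 3 groups, and those of the list labelled SMC1 held 29.8%, 25.8% and 4.55%. Since all loops of the list labelled CTCF and 99.96% of those labelled SMC1 have an SMC1 peak at an anchor, and anchors span 5 kb, the gap to SMC1 sets much of these loop shares in advance.

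**Figure D3:**
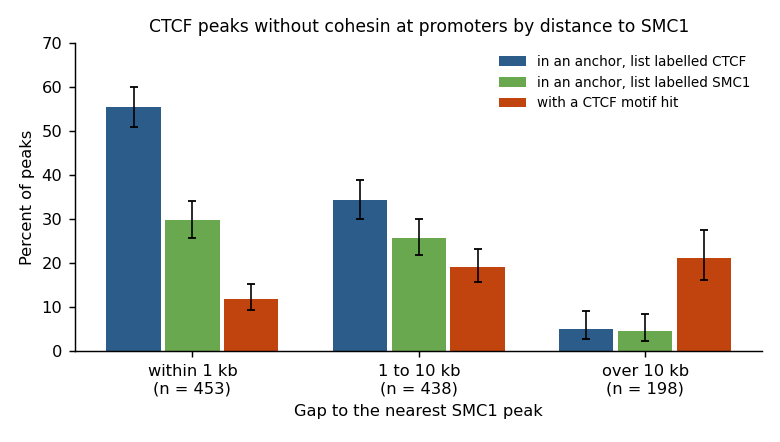
Percent of CTCF peaks without cohesin at promoters (vertical axis) that lie in a loop anchor of each list or hold a CTCF motif match, for 3 ranges of the gap to the nearest SMC1 peak. Bars are shares and lines their 95% Wilson intervals; the share in anchors of the list labelled CTCF is 55.4% in the nearest group and 5.05% in the farthest.

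The CTCF motif was less frequent than at CTCF peaks in general. A match within 100 bp of the summit was found at 180 of the 1089 peaks, 16.5% (95% Wilson interval from 14.4% to 18.9%), while 25.2% of all CTCF peaks and 26.1% (from 25.2% to 27.0%) of promoter peaks with cohesin had one. Among distal CTCF peaks without cohesin it was 13.1% (from 12.5% to 13.6%). This order did not hold at a stricter minimum, which 1% of control windows exceed: 4.50% (from 3.42% to 5.90%) of the selected peaks, 5.15% (from 4.79% to 5.53%) of distal peaks without cohesin and 11.0% of promoter peaks with cohesin had a match. The minimum score, 11.7 bits, was set where 5% of windows 1 kb from the learning summits exceed it. Sequence at and near promoters passed it more often. At 11530 coding starts with no CTCF peak within 1 kb the share was 15.1% (from 14.4% to 15.8%), at a median GC share of 63.7%. In windows 1 kb to the left and right of the selected summits the match share was 11.0% and 10.2%. Whether the GC share accounts for this was not tested. A match is a description of the letters and not a bound site, and peaks without one hold no letters above the minimum in this window.

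Motif share rose with the strength of the selected peaks from 10.8% at -log10 q-values from 2 to 5 to 20.5% (from 16.4% to 25.4%) at 10 to 20, and was 18.2% (from 8.61% to 34.4%) in the 33 peaks above 50. In promoter peaks with cohesin it was 11.3% and 20.8% at 2 to 5 and at 10 to 20, so at these strengths the classes differed by less than the counting error. Above 50 the peaks with cohesin reached 40.2% (from 38.5% to 42.0%), beyond the interval of the 33. With a start inside the peak 24.5% held a match (from 19.2% to 30.8%), against 11.8% of peaks upstream and 17.4% of those downstream. The median GC share had the same order, 60.9%, 49.8% and 53.7%, and the shares were not compared at matched GC. The motif pointed along the gene in 83 of the 180 peaks, 46.1% (from 39.0% to 53.4%), and against it in the others.

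Fewer of the selected peaks than of the promoter peaks with cohesin lay in loop anchors. The rule that selected them sets part of this difference, because it left out overlap with SMC1 peaks while nearly all loops have an SMC1 peak at an anchor. In the list labelled CTCF 411 of them, 37.7% (from 34.9% to 40.7%), overlapped an anchor, against 55.5% of all CTCF peaks, 69.6% (from 68.6% to 70.5%) of promoter peaks with cohesin and 21.5% (from 20.9% to 22.2%) of distal peaks without cohesin. The list labelled SMC1 held 257 of them, 23.6% (from 21.2% to 26.2%), against 28.4%, 37.4% and 12.4%. Both lists held 198 of the peaks (18.2%), and 619 (56.8%) were in neither. Of promoter peaks with cohesin 35.0% were in both lists and 28.0% in neither. Of distal peaks without cohesin 8.83% were in both and 74.9% in neither. The share in the list labelled CTCF was below that of peaks with cohesin in each bin of strength: 27.5% against 55.4% at -log10 q-values from 2 to 5, 55.4% against 68.2% at 20 to 50 and 42.4% (from 27.2% to 59.2%) against 83.7% above 50. For the list labelled SMC1 the shares were 20.3% against 26.6% at 2 to 5, 20.2% against 26.1% at 5 to 10, 25.2% (from 20.6% to 30.4%) against 28.9% at 10 to 20 and 31.2% against 30.9% at 20 to 50. Above 50 they were 33.3% (from 19.8% to 50.4%) and 54.5% (from 52.7% to 56.2%), with intervals that did not overlap.

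**Figure D4:**
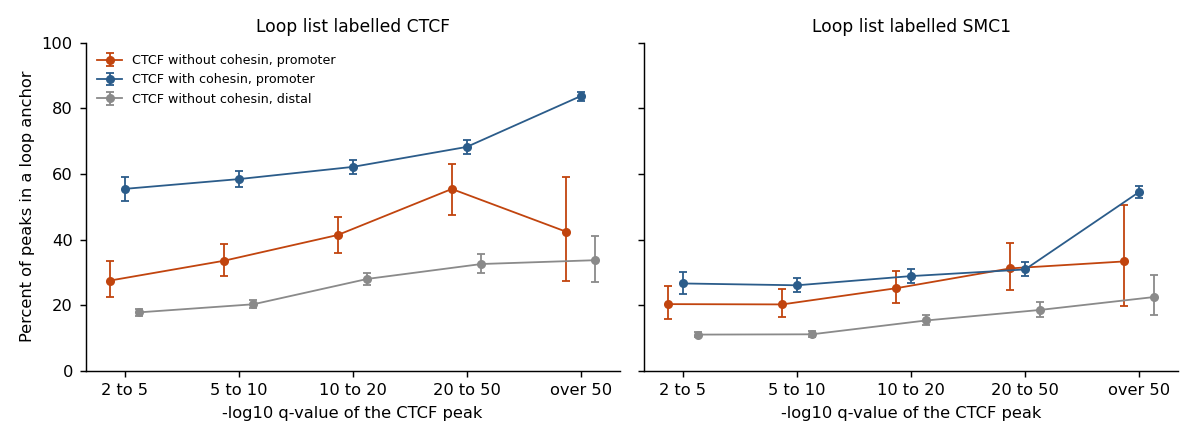
Percent of CTCF peaks in a loop anchor (vertical axis) by the -log10 q-value of the peak (horizontal axis), for the loop lists labelled CTCF (left) and SMC1 (right) and 3 classes of peaks. Points are shares and lines their 95% Wilson intervals; for the list labelled CTCF the peaks without cohesin at promoters lie between promoter peaks with cohesin and distal peaks without it in each bin.

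Most of these anchors held other peaks as well, and a 5 kb anchor cannot tell which of them made the contact. Of the 413 anchors of the list labelled CTCF with a selected peak, 322 (78.0%) also held an SMC1 peak and 249 (60.3%) another CTCF peak. The same shares over all anchors were not computed. Since all loops of this list have an SMC1 peak at an anchor, the list sets part of the SMC1 share, which is no trait of the selected peaks. A selected peak stood alone, with no other CTCF peak and no SMC1 peak, in 81 anchors, which took in 81 of the 1089 peaks, 7.44% (from 6.02% to 9.15%). There were 62 such peaks in the list labelled SMC1, 5.69% (from 4.47% to 7.23%). These shares were close to those of distal CTCF peaks without cohesin, 7.69% and 5.53%.

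The loops with a selected peak at an anchor were shorter and less enriched than the whole list. There were 1177 such loops in the list labelled CTCF, 1.48% of it, with a median of 25 read pairs (from 23 to 26), 3.51 times the expected number (from 3.41 to 3.65) and a span of 95 kb (from 90 to 95). All loops of the list had medians of 23 read pairs, 4.03 times expected and 125 kb. The 527 loops of the list labelled SMC1 had medians of 24 read pairs, 3.49 times expected and 105 kb. Their other anchor held a CTCF peak with cohesin in 65.8% of the loops labelled CTCF and 81.4% of those labelled SMC1, and a coding start in 21.1% and 28.3%. Where the selected peak stood alone, the 116 loops labelled CTCF had a median of 20 read pairs (from 18 to 22), 4.01 times expected, and the other anchor carried a CTCF peak with cohesin in 99 of them, 85.3% (from 77.8% to 90.6%). For loops labelled SMC1 it did so in 82 of 84. Since a loop needs a peak at 1 anchor at least, the lists themselves set part of these shares. An anchor where the selected peak stood alone held no SMC1 peak, which nearly fixed an SMC1 peak at the other anchor. All 116 loops labelled CTCF and 82 of the 84 labelled SMC1 had one there. A CTCF peak of any kind lay there in the same 99 and 82 loops. No such shares over all loops were computed. The motif of the selected peak pointed towards the other anchor in 142 of 208 loops labelled CTCF and in 46 of 79 labelled SMC1. With the peak alone in its anchor it did so in 9 of 13 and 6 of 13. Loops at 1 anchor share their peak, so these are descriptions.

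None of the 10 strongest peaks was among those with the most loops. CYB5B, which encodes a cytochrome b5 of the outer mitochondrial membrane, lay in the anchor with the most loops labelled CTCF, 27, with a peak at a -log10 q-value of 7.57 and an SMC1 peak 796 bp away. The anchors of BOD1, a gene of chromosome biorientation, and of COL1A1, a collagen chain gene, had 18 each, and that of MYO9B, a myosin gene, had 16. BOD1 had 2 selected peaks in 1 anchor. COL1A1 was joined to the start of SGCA, which encodes alpha-sarcoglycan, by 299 read pairs against 41.2 expected over 30 kb. Of loops labelled SMC1, RBM17, a splicing factor gene, had 25, MISP3 16, the adhesion receptor gene ADGRG1 15 and TAFA3 11.

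Some named peaks stood alone in their anchor, which does not mean that they were far from cohesin. The gap to the nearest SMC1 peak was 834 bp at INPP5E, 646 bp at MYO1F, 932 bp at RPL23A and 981 bp at HES3. At GMPPA, CDC42BPG and PRSS50 it was 1109, 2262 and 3076 bp. These SMC1 peaks lay outside the 5 kb bins. INPP5E had 2 loops in the list labelled CTCF, the stronger with 14 read pairs against 4.32 expected over 195 kb, and the anchor took in an edge of the peak but not its summit. MYO1F had 4 in the list labelled CTCF, of which the strongest joined it to the start of MARCHF2, a ubiquitin ligase gene, with 22 read pairs against 3.31 expected over 165 kb, and 1 in the list labelled SMC1. RPL23A, a ribosomal protein gene with a weaker peak at a -log10 q-value of 13.5, was joined to DHRS13 over 180 kb in both lists, by 24 read pairs against 6.48 expected and by 46 against 8.25. HES3, GMPPA, CDC42BPG and PRSS50 stood alone in both lists as well, and CDC42BPG had the most read pairs of these, 66 against 26.6 expected over 50 kb in the list labelled CTCF.

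A selected peak lay at a start of 1083 of the 18773 coding genes, 5.77%. Of these, 757 (69.9%) also had an SMC1 peak at a start and 536 (49.5%) a CTCF peak with cohesin within 1 kb of a start, and 326 (30.1%) had no SMC1 peak within 1 kb of any start. Over all coding genes 64.2% had an SMC1 peak at a start and 43.1% a CTCF peak with cohesin. At 70 peaks more than 1 gene had its start, and 56 of them had starts on both strands.

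Among the gene lists the clustered protocadherins had the highest share. A selected peak lay at 14 of 53, 26.4% (95% Wilson interval from 16.4% to 39.6%), against 5.77% of all coding genes. A CTCF peak with cohesin lay at 15 of the 53 (28.3%), against 43.1% of all coding genes. The list was written with earlier results known, and its genes are paralogs that lie side by side, so the interval is a description. The 14 genes carried 15 peaks with a median -log10 q-value of 8.31, from 2.82 to 20.6, and a median fold enrichment of 3.71. Of the 15 peaks 10 were over 10 kb from an SMC1 peak, with a median gap of 51519 bp, 6 held a motif match and 6 had the summit in a coding exon. None had a summit sequence in more than 1 copy. The strongest was that of PCDHA5, at a fold enrichment of 6.41 and 641 bp downstream of the start, followed by PCDHB10 (6.12), PCDHB15 (4.81) and PCDHB7 (4.68). The 4 exonic sites printed above belong to peaks of PCDHA4 (4.59), PCDHA5, PCDHA8 (3.64) and PCDHA11 (2.93), which were between 81225 and 143203 bp from an SMC1 peak and in no loop anchor. The gamma genes differed: PCDHGA6, PCDHGA8, PCDHGA9 and PCDHGA11 had SMC1 peaks between 450 and 4571 bp away and lay in anchors of the list labelled CTCF, and none held a match.

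B cell receptor signalling genes had 4 of 17 (23.5%, from 9.56% to 47.3%). A CTCF peak with cohesin lay at 11 of the 17 (64.7%), against 43.1% of all coding genes. MALT1, the paracaspase that activates NF-kappaB, had a fold enrichment of 6.96, a motif match in a coding exon and 5 loops labelled CTCF. PTPN6, which encodes a tyrosine phosphatase, had a -log10 q-value of 37.4. PRKCB, a protein kinase C gene, and VAV3, an exchange factor gene, had fold enrichments of 2.98 and 2.76. All 4 had an SMC1 peak between 353 and 2395 bp away. None of the 23 B cell identity genes had a selected peak, with an upper bound of 14.3% that takes in the 5.77% of all coding genes. A CTCF peak with cohesin lay at a start of 17 of them (73.9%). Selected peaks were also at 0 of 15 NF-kappaB genes, 0 of 26 DNA repair genes and 0 of 12 CTCF and cohesin genes. Their upper bounds of 20.4%, 12.9% and 24.2% also take in the 5.77%.

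The other lists lay near the share of all genes or below it. Zinc finger genes had 25 of 549 (4.55%), led by ZNF555 (-log10 q-value 52.1) and ZNF319 (40.6), and solute carriers 19 of 359 (5.29%), led by SLC25A48 (36.5). Ribosomal protein genes had 6 of 85 (7.06%), RPL22 (48.3) and RPL32 (30.5) among them. Mitochondrial ribosomal protein genes had 4 of 78, led by MRPS27 (26.5), and genes with symbols in NDUF 2 of 46, NDUFAF3 and NDUFAB1 (75.1). Mediator had 2 of 28, MED16, whose summit sequence occurs in 31 copies, and MED15, proteasome subunits 1 of 39, PSMD14, and tubulins, kinesins and dyneins 4 of 93, led by KIF5A. HOX genes had 2 of 39, HOXB8 (33.0) and HOXA5 (6.86), both with a motif match. Histone genes had 1 of 85, H4C4, at which 2 peaks lay. Olfactory receptors were below, with 5 of 390 (1.28%, from 0.549% to 2.97%). As few as 6 of them (1.54%) had a CTCF peak with cohesin, against 43.1% of all coding genes, and 4 of the 5 peaks were over 10 kb from SMC1.

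**Figure D5:**
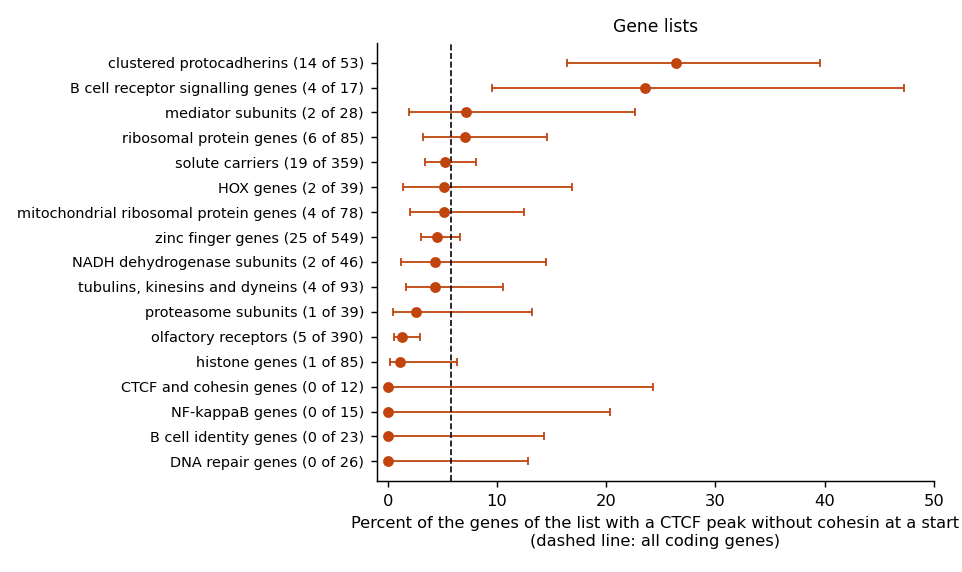
Percent of the genes of each list with a CTCF peak without cohesin at a start (horizontal axis), with the counts beside the names. Points are shares, lines their 95% Wilson intervals and the dashed line the 5.77% of all coding genes; clustered protocadherins lie at 26.4% and olfactory receptors at 1.28%.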

How the data were processed

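Reads of both replicates were aligned with BWA-MEM, and the submitters' processing notes name MACS3 3.0.1. The authors called peaks without an input sample. They deposited a fold enrichment, which is a ratio, a -log10 q-value, whose minimum is 2.0, and a score, not used here, for each peak. The loop lists the authors deposited give raw counts of read pairs per pair of bins and an expected count. Their q-values were not used. Loop read pairs sum to 2635261 (list labelled CTCF) and 783375 (labelled SMC1), and the lists hold no library depth. The study states more reads for SMC1 than for CTCF.

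Members and gene lists were chosen with earlier results of these data known. Overlaps needed 1 bp. The motif was learned by expectation maximization from 50 bp on either side of the summits, and the scripts were tested on simulated data. Named are the 10 peaks highest in -log10 q-value, the 5 highest in fold enrichment, the 3 widest, the 5 with most loops per list, those beside each threshold and up to 4 per gene list, some of which are not reported here. DNAJC22, DHX37, HES3, GMPPA, PRSS50, CDC42BPG, partner genes and further protocadherins were chosen after their values were seen. The repeat-masked share that was planned could not be computed, as the hg38 sequence used carries no masking. Alternatives changed thresholds, overlap rules, starts, anchors, motif windows and chromosomes. Versions were pandas 2.3.3, pysam 0.24.0, SciPy 1.17.1, Matplotlib 3.10.9, NumPy 2.4.6 and Python 3.11.15.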

Additional observations from a re-analysis of the deposited data

How the results depend on the processing

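No paired analysis was possible because the replicates were pooled before peaks and loops were called, and no replicate could be left out. Of 93 values recomputed for the 8 main results, 50 stayed within 1.5 times the count or within the 95% interval and 43 did not. A minimum -log10 q-value of 5 for CTCF gave a fold enrichment of 3.78, a -log10 q-value of 11.2, a width of 287 bp and 40.8% in anchors of the list labelled CTCF. A minimum of 10 gave 492 peaks, 515 genes, 4.45, 16.9, 307.5 bp, 45.9% and, in the list labelled SMC1, 27.6%, with a motif at 20.3%. No SMC1 peak within 1 kb gave 636 peaks, 610 genes, a -log10 q-value of 7.51, 281.5 bp, 25.2% and 19.2% in anchors and a motif at 19.8%. Counting only SMC1 peaks whose -log10 q-value reached 10 gave 1704 peaks, 1672 genes, a fold enrichment of 3.57 and 297 bp. A peak edge within 500 bp gave 720 peaks, 718 genes, 3.61, a -log10 q-value of 10.1 and a motif at 19.03%. Canonical starts gave 654 peaks, 672 genes, 3.64, 10.7 and 41.1% in anchors labelled CTCF. Odd-numbered chromosomes gave 610 peaks and 610 genes. For anchors, extension by 5 kb gave 54.6% (list labelled CTCF) and 34.9% (SMC1), loops with at least the median read pairs 25.3% and 16.5%, and anchors with no other peak 7.44% and 5.69%. For the motif, 50 bp on either side gave 13.7%, and a minimum that 1% of control windows exceed gave 4.50%. Windows of 300 bp (17.6%) and summits whose 32 bp occur once (1031 peaks) were added after seeing the data. In most of these settings fewer or other peaks enter by construction. Pooled lists without an input sample limit every value. The study reports a high overlap of peaks between replicates, but a single called or missing SMC1 peak could not be checked by replicate here. Weak peaks near the threshold decide many memberships.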
